A study of Arabidopsis thaliana with 51 samples.

Results

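BGLU27 (AT3G60120) and BGLU45 (AT1G61810) are 2 genes of the plant beta-glucosidase family, glycoside hydrolase family 1. Their probe sets on the Affymetrix ATH1 array were taken as those that the array's annotation pairs with these symbols, out of 13513 probe sets that it pairs with a single gene. Each gene has 1 such probe set, and both reached the minimum level set for testing. The annotation names another 20 genes of the family, and the levels in all 17 groups of the series are described.

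Enzymes of this family remove glucose from glucosides that plants keep in store, and so release alcohols, hormones or defence compounds. BGLU45 and its neighbour BGLU46 are known as enzymes that act on the glucosides of monolignols, the alcohols from which lignin is made. Other members of the family, such as PEN2 (BGLU26) and PYK10 (BGLU23), act on glucosinolates and take part in defence. No substrate of BGLU27 is named here.

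The RNA came from whole Arabidopsis thaliana seedlings that spent 5 to 6 days on agar and another 5 to 6 days in liquid medium, with 12 h of light and 12 h of dark, before they received a peptide at 1 µM. The peptide elf18 is a piece of the bacterial translation factor EF-Tu, and plants sense it through EFR, a receptor kinase. Pep2 is a danger peptide that the plant makes itself and senses through PEPR1 and PEPR2. Both kinds of receptor work with the co-receptor kinase BAK1. EIN2 is a membrane protein required for ethylene signalling.

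The 51 arrays form 17 groups of 3 biological replicates. Wild type (WT) was sampled untreated and after 2 h or 10 h with either peptide. The ethylene-insensitive line ein2-1 was sampled untreated, after 2 h with either peptide and after 10 h with elf18. The line bak1-3 was sampled untreated and at 2 h and 10 h of Pep2. The elf18 receptor mutant efr-1 was sampled untreated and at 10 h of elf18, and the double receptor mutant pepr1-1 pepr2-3 untreated and at 2 h and 10 h of Pep2. Untreated seedlings were sampled at 0 h only, so that the effect of a peptide and the time elapsed since then cannot be told apart within a line. In RNA of whole seedlings, fewer cells of a type and less RNA per cell cannot be told apart either.

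Levels are log2 expression values, and the median over probe sets lay between 6.04 and 6.16 on all arrays. The lowest value that any probe set takes is 2.08, which 27.4% of all values reach within 0.1, so that the size of a difference from such a group reflects how the authors corrected for background. Pairs of arrays of a group correlated at 0.992 to 0.998 over all probe sets. Of the genes mutated in these lines only EFR is named by the annotation, at 3.22 ± 0.32 (SD, n = 3) in untreated WT, 2.20 ± 0.07 in untreated efr-1 and 2.17 ± 0.01 in efr-1 at 10 h of elf18. Of the marker genes listed, the annotation names 1 of 6 for leaf, 2 of 6 for root and 0 of 6 for xylem. The leaf gene RCA, the activase of the carbon-fixing enzyme, had group means of 13.97 to 15.16. The root gene PYK10 had group means of 14.04 to 14.77, and the root-hair expansin gene EXPA7 5.62 to 7.11.

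One array stood apart for BGLU27. In ein2-1 at 10 h of elf18 the gene was at 7.49 in replicate 1 and at 2.08, the lowest value, in replicates 2 and 3. That array widened the error of every BGLU27 difference, since the spread is shared over groups. The standard error (SE) of a difference between 2 groups was 0.604 with it and 0.148 without it, and BGLU27 differences below carry the first unless stated. Groups with every array at the lowest value have an SD of 0.00 and lower the shared spread. The second SE can therefore be too small for groups at higher levels. BGLU45 differences between groups have an SE of 0.353. Both genes were selected on their measured log2 responses to Pep2 on these arrays, so their levels and differences are given as descriptions, with no test.

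BGLU27 was within 0.1 of the lowest value on every untreated array and was above it wherever Pep2 was given to a line with the PEPR receptors. In WT it was at 2.08 on all 3 arrays at 0 h. At 2 h of Pep2 it was at 10.35, 9.76 and 9.85 in the 3 replicates (9.99 ± 0.32, SD, n = 3). After 10 h of Pep2 it was at 4.77, 5.02 and 5.00 (4.93 ± 0.14). The 3 groups did not overlap, and the level at 10 h lay between those at 0 h and 2 h.

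The WT difference from 0 h was 7.91 at 2 h and 2.85 at 10 h of Pep2, on the log2 scale. In these comparisons 11.0% and 8.57% of all probe sets tested were called higher, at an adjusted p under 0.05 and at least a 2-fold difference. From 2 h to 10 h the level was lower by 5.06 on average, in a comparison where 10.4% of probe sets were called lower.

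With elf18, BGLU27 in WT stayed near the lowest value. It was at 2.33, 2.35 and 2.13 at 2 h (2.27 ± 0.12) and at 2.08 on all 3 arrays at 10 h. All arrays at 2 h lay above those at 0 h by a mean of 0.19 (SE 0.604, and 0.148 without the array of ein2-1 that stood apart), in a comparison where 8.16% of probe sets were called higher. At 2 h, elf18 arrays lay below Pep2 arrays by a mean of 7.72, with 4.1% of probe sets called lower with elf18 than with Pep2. The difference between the peptides at 10 h was 2.85 in the same direction, with 7.08% called lower with elf18.

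**Figure D1:**
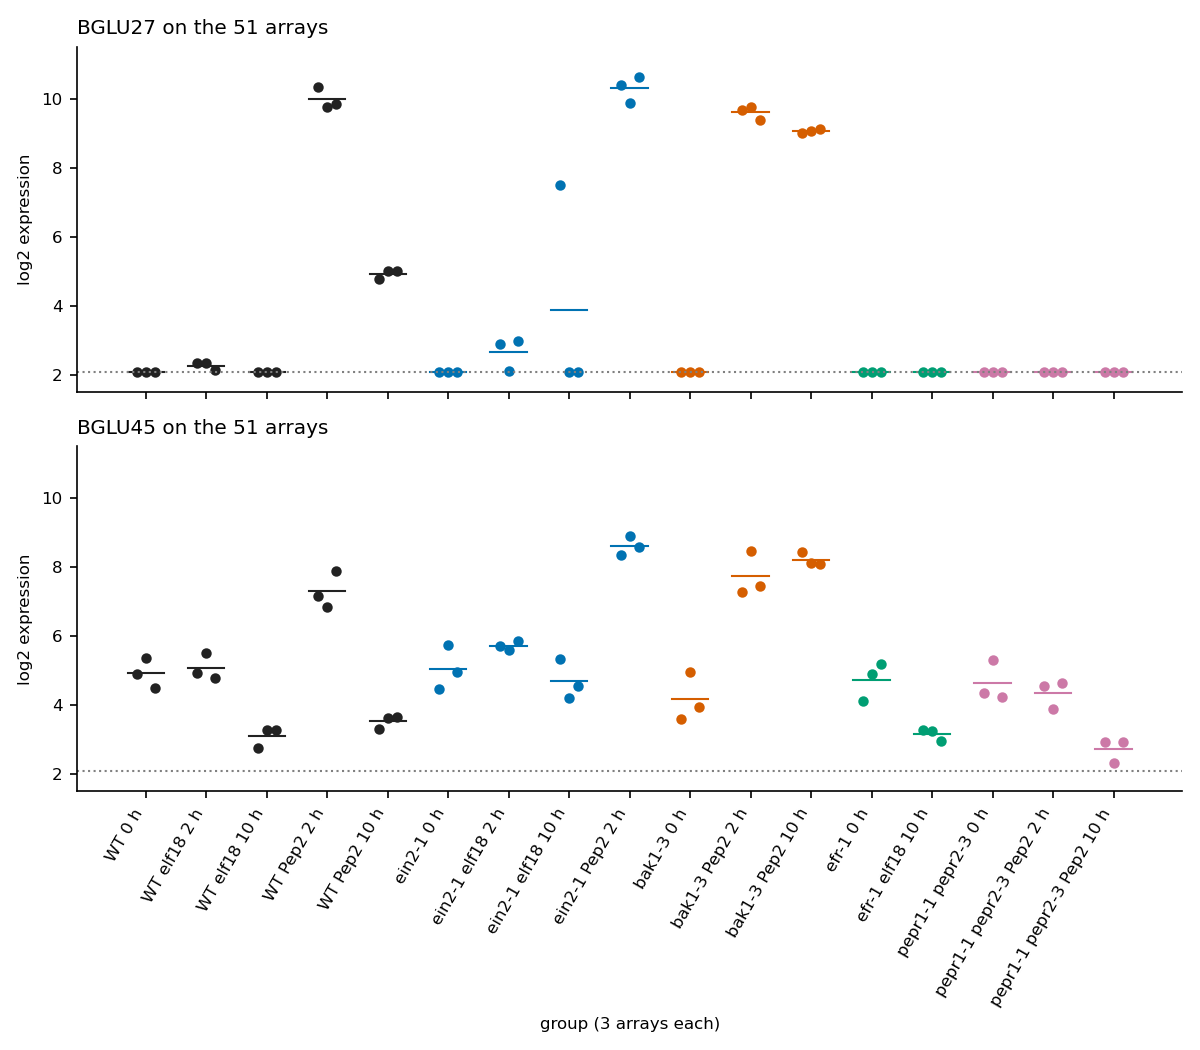
Log2 expression of BGLU27 (top) and BGLU45 (bottom) on all 51 arrays, by group; each point is 1 array, each bar the mean of 3 arrays, and the dotted line the lowest value on the arrays, 2.08. BGLU27 lies above 8 only in Pep2 groups of WT, ein2-1 and bak1-3, and 1 of the 3 arrays of ein2-1 at 10 h of elf18 lies at 7.49.

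BGLU27 was high after Pep2 in the ethylene-insensitive line too. In ein2-1 at 2 h of Pep2 the gene was at 10.39, 9.87 and 10.63 (10.30 ± 0.39), against 2.08 on all arrays at 0 h. The difference from 0 h was 8.22, in a comparison where 10.6% of probe sets were called higher. The treated ein2-1 and WT groups overlapped, and their means differed by 0.31 (SE 0.604, and 0.148 without the array that stood apart). The smaller SE is shared with groups at the lowest value, whereas the SDs of these 2 groups were 0.39 and 0.32. After 2 h of elf18, ein2-1 was at 2.90, 2.12 and 2.97 (2.66 ± 0.47), a range that overlapped that of WT.

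In the pepr1-1 pepr2-3 line BGLU27 was at 2.08 on all 9 arrays, with and without Pep2. The response to Pep2 was therefore smaller than that of WT by 7.91 at 2 h and by 2.85 at 10 h (SE 0.854 each). In those interactions 11.8% and 4.78% of probe sets were called lower. The efr-1 line was likewise at 2.08 on all 6 arrays, where WT at 10 h of elf18 was at 2.08 as well, so that a loss in efr-1 could not have been seen for this gene.

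The bak1-3 line differed from WT at the later time. At 2 h of Pep2 its arrays were at 9.67, 9.77 and 9.39 (9.61 ± 0.20), a range that overlapped that of WT. At 10 h they were at 9.00, 9.07 and 9.12 (9.06 ± 0.06), against 4.77 to 5.02 in WT. All bak1-3 arrays lay above all WT arrays at 10 h, by a mean of 4.13, in a comparison where 7.0% of probe sets were called higher.

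Within bak1-3 the level at 10 h was lower than at 2 h by 0.55, and the arrays did not overlap. The SE of this difference was 0.604 with all arrays and 0.148 without the array of ein2-1 that stood apart. In that comparison 11.2% of probe sets were called lower. The response of bak1-3 at 10 h exceeded that of WT by 4.13 (SE 0.854), and 6.68% of probe sets were called higher in this interaction. Without that array the SE of the interaction was 0.209.

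BGLU27 levels thus ran from ein2-1, WT and bak1-3 at 2 h of Pep2 (10.30, 9.99 and 9.61) to bak1-3 at 10 h (9.06) and then WT at 10 h (4.93). The ranges of ein2-1 and WT overlapped at 2 h, as did those of WT and bak1-3. The other 12 groups had means of 3.88 or less, and 31 of the 51 arrays lay within 0.1 of the lowest value.

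BGLU45 was measured above the lowest value in every group, so that its level could be seen to go both up and down. Repeated low values in some groups at 10 h limit the size of the falls. In untreated WT it was at 4.90, 5.36 and 4.51 (4.92 ± 0.43). At 2 h of Pep2 it was at 7.15, 6.85 and 7.89 (7.30 ± 0.53). After 10 h of Pep2 it was at 3.32, 3.64 and 3.66 (3.54 ± 0.19). All arrays at 2 h lay above those at 0 h, and all arrays at 10 h lay below them.

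The WT difference from 0 h was 2.37 at 2 h of Pep2, which is 5.18-fold, and -1.39 at 10 h (SE 0.353 each). The share of probe sets called lower at 10 h of Pep2 was 8.85%. From 2 h to 10 h the mean was lower by 3.76, and the arrays at these times did not overlap.

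With elf18, BGLU45 in WT was at 4.94, 5.51 and 4.80 at 2 h (5.08 ± 0.38), which overlapped the untreated arrays. After 10 h it was at 2.76, 3.27 and 3.27 (3.10 ± 0.29), and all arrays lay below those at 0 h. In this group the leaf gene RCA had its lowest mean of the series, 13.97 against 15.07 at 0 h. Of the root genes, EXPA7 was at 6.55 against 6.92 and PYK10 at 14.43 against 14.37. The part of these markers in the result was not tested. The difference from 0 h was 0.16 at 2 h and -1.82 at 10 h, and 13.5% of probe sets were called lower at 10 h. At 2 h the elf18 arrays lay below the Pep2 arrays by a mean of 2.21.

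The lower level at 10 h was also seen in the mutants without the receptor. In efr-1, BGLU45 was at 4.11, 4.89 and 5.18 untreated and at 3.27, 3.25 and 2.97 at 10 h of elf18. The efr-1 groups did not overlap and differed by -1.56, in a comparison where 7.12% of probe sets were called lower. The efr-1 and WT arrays at 10 h of elf18 overlapped, with a mean difference of 0.06 (SE 0.353). Both groups held the repeated value of 3.27, which limits this comparison.

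In pepr1-1 pepr2-3, BGLU45 was at 4.36, 5.30 and 4.25 untreated (4.63 ± 0.58). It was at 4.54, 3.90 and 4.64 at 2 h of Pep2 (4.36 ± 0.40), which overlapped the untreated arrays. It was at 2.93, 2.31 and 2.93 at 10 h (2.73 ± 0.36), below all untreated arrays. The difference from 0 h was -0.27 at 2 h and -1.91 at 10 h, with 7.57% of probe sets called lower at 10 h. The repeated value of 2.93 limits the size of the difference at 10 h.

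The pepr1-1 pepr2-3 line thus lacked the higher BGLU45 level at 2 h of Pep2 but had a lower level at 10 h, and efr-1 was not sampled at 2 h. Relative to the WT response, that of pepr1-1 pepr2-3 was lower by 2.65 at 2 h (SE 0.499). At 10 h the responses differed by -0.52 with the same SE, and that of efr-1 to elf18 differed from that of WT by 0.26. The decline at 10 h in these lines came with a peptide whose receptor was mutated, and with time alone it was not measured.

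**Figure D2:**
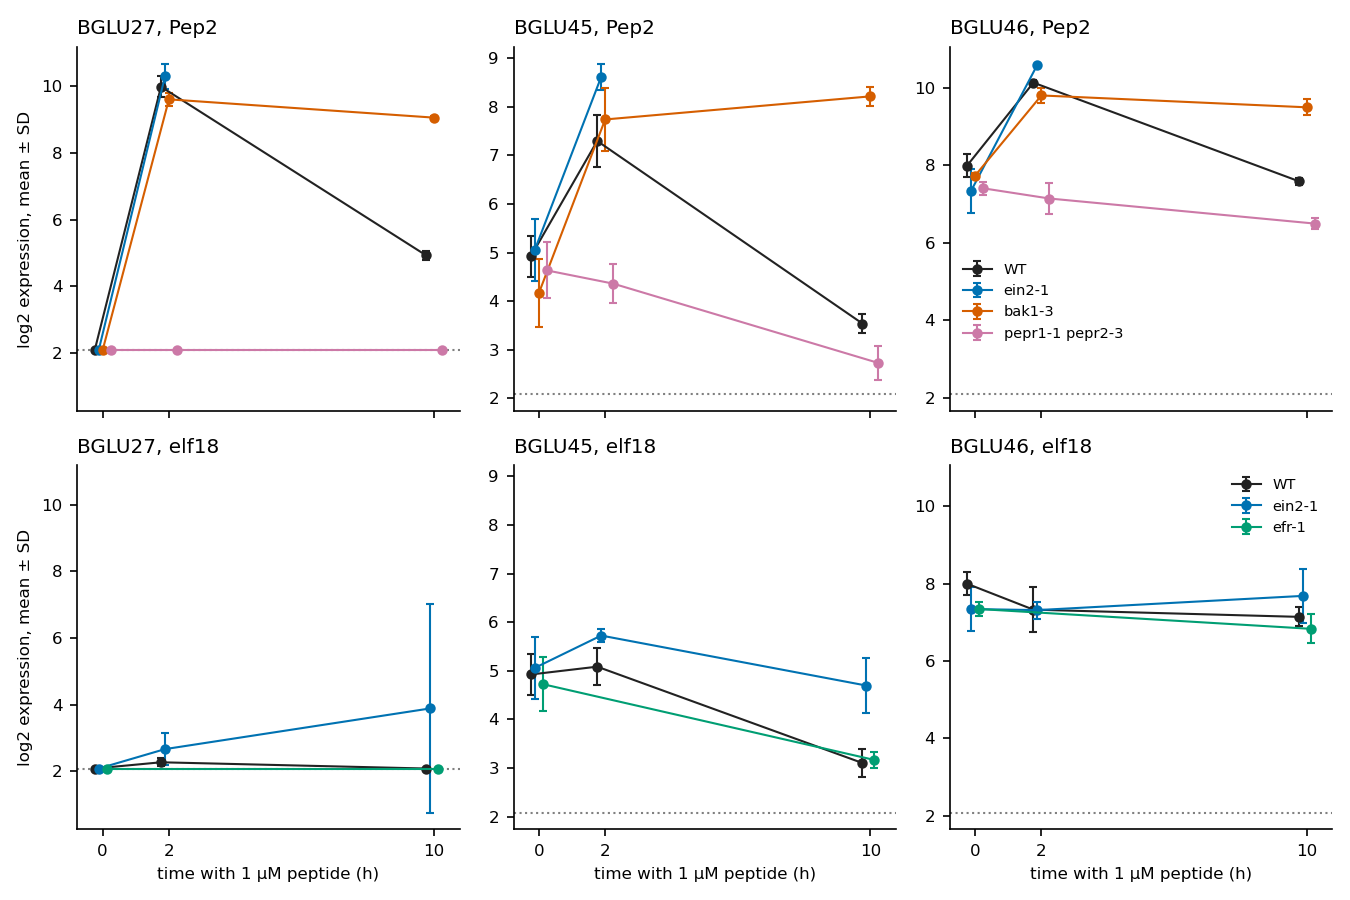
Mean log2 expression ± SD (3 arrays) of BGLU27, BGLU45 and BGLU46 against hours with 1 µM Pep2 (top) or elf18 (bottom), by line; the dotted line is the lowest value on the arrays. At 10 h of Pep2 the 3 genes are at 9.06, 8.22 and 9.50 in bak1-3 and at 4.93, 3.54 and 7.59 in WT.

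In ein2-1, BGLU45 was higher than in WT in the treated groups. Untreated ein2-1 was at 4.48, 5.75 and 4.95 (5.06 ± 0.64) and overlapped WT. At 2 h of Pep2 it was at 8.35, 8.90 and 8.59 (8.62 ± 0.28), the highest group mean of the series for this gene. These arrays lay above those of WT by a mean of 1.32, in a comparison where 3.01% of probe sets were called higher.

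At 2 h of elf18, BGLU45 in ein2-1 was at 5.72, 5.59 and 5.86 (5.73 ± 0.14), above all WT arrays by a mean of 0.64, with 3.23% of probe sets called higher. After 10 h it was at 5.33, 4.21 and 4.55 (4.70 ± 0.57), above all WT arrays by a mean of 1.59, with 3.66% called higher. The highest of these arrays is the replicate in which BGLU27 stood apart, and the other 2 also lay above the WT range. Relative to the WT response, the response of ein2-1 was higher by 1.18 at 2 h of Pep2, by 0.50 at 2 h of elf18 and by 1.46 at 10 h of elf18 (SE 0.499 each).

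In bak1-3, BGLU45 remained high at 10 h of Pep2. Untreated bak1-3 was at 3.59, 4.95 and 3.96 (4.16 ± 0.70), lower than WT by a mean of 0.76, with overlapping arrays. At 2 h of Pep2 it was at 7.28, 8.48 and 7.46 (7.74 ± 0.64), which overlapped WT. At 10 h it was at 8.45, 8.12 and 8.08 (8.22 ± 0.20), against 3.32 to 3.66 in WT. The bak1-3 arrays at 10 h overlapped those at 2 h, whereas they lay above WT by a mean of 4.68.

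The difference of BGLU45 from 0 h in bak1-3 was 3.58 at 2 h and 4.05 at 10 h of Pep2. In these comparisons 10.6% and 15.1% of probe sets were called higher. In WT the difference at 10 h was in the opposite direction, so that the response of bak1-3 exceeded that of WT by 5.44 (SE 0.499). In that interaction BGLU45 ranked 8 of 14568 probe sets from the highest and BGLU27 ranked 38. In the same group, EXPA7 had its lowest group mean of the series, 5.62, against 6.48 in WT at 10 h of Pep2. RCA was at 14.53 against 14.81 and PYK10 at 14.12 against 14.33. The part of these markers in the result was not tested.

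BGLU45 levels ran from ein2-1 at 2 h of Pep2 (8.62), bak1-3 at 10 h and 2 h of Pep2 (8.22 and 7.74) and WT at 2 h of Pep2 (7.30) to ein2-1 at 2 h of elf18 (5.73). Neighbours among the first 4 of these groups overlapped, and WT at 2 h of Pep2 lay above all later groups. The lowest groups were WT at 10 h of Pep2 (3.54), efr-1 and WT at 10 h of elf18 (3.16 and 3.10) and pepr1-1 pepr2-3 at 10 h of Pep2 (2.73). The other 8 groups had overlapping neighbours between 5.08 and 4.16. Untreated arrays varied by up to 0.70 (SD), and replicate 2 was the highest of the 3 in 4 of the 5 untreated groups, which the labels do not explain.

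Over the 17 group means the levels of the pair correlated at a Pearson's r of 0.858 and a Spearman's rho of 0.677, and over the 51 arrays at an r of 0.835. The groups share lines and treatments, and both genes were selected on their responses to Pep2, which favours a positive correlation. These values are therefore a description. The pair differed most plainly in WT at 10 h of Pep2, where BGLU27 was above its untreated level by 2.85 and BGLU45 differed from its own by -1.39. In WT and efr-1 at 10 h of elf18 and in pepr1-1 pepr2-3 at 10 h of Pep2, BGLU27 was at the lowest value and BGLU45 was below its untreated level.

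BGLU46 (AT1G61820) lies next to BGLU45 in the genome, and it responded to Pep2 as well. It rose in WT at 2 h of Pep2 from 7.99 ± 0.30 to 10.14 ± 0.08 (n = 3), by 2.14 with an SE of 0.257 (limma, adjusted p = 3.8e-09). In pepr1-1 pepr2-3 the response was lower than that of WT by 2.41 (SE 0.363, limma, adjusted p = 8.5e-07). By 10 h it was at 7.59 ± 0.09 in WT, -0.40 from 0 h (limma, adjusted p = 0.19).

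In bak1-3 at 10 h, BGLU46 was still at 9.50 ± 0.20, and the response exceeded that of WT by 2.17 (SE 0.363, limma, adjusted p = 1e-05). It was lower with elf18 than with Pep2 at 2 h by 2.81 (SE 0.257, limma, adjusted p = 3.9e-11). In ein2-1 at 2 h of Pep2 it was at 10.60 ± 0.03, and the response exceeded that of WT by 1.12, which missed the threshold (limma, adjusted p = 0.054). Untreated ein2-1 was at 7.34 ± 0.57, against 7.99 in WT. The treated groups differed by 0.46 (limma, adjusted p = 0.23). Since BGLU45 and BGLU46 are close relatives, hybridisation of 1 transcript to the probes of the other was not tested.

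The neighbour of BGLU27 is BGLU16 (AT3G60130), which was not called at 2 h of Pep2 in WT. BGLU16 was at 7.95 ± 0.18 in untreated WT and at 7.62 ± 0.14 at 2 h of Pep2, a difference of -0.33 (SE 0.211, limma, adjusted p = 0.18). In bak1-3 at 10 h of Pep2 it rose by 1.40 (limma, adjusted p = 2.8e-07), and the interaction of 0.68 missed the threshold (limma, adjusted p = 0.069). The next gene along, DIN2 (BGLU30), and PEN2 are not named by the annotation and are not described here.

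Of the 20 other named genes of the family, 10 reached the minimum level of log2 5 on at least 3 arrays. In WT at 2 h of Pep2, 2 of these 10 rose (BGLU46 and BGLU42, which acts on the glucoside of the coumarin scopoletin) and 0 fell, where 11.0% of all probe sets rose and 10.0% fell. Without replicate 2 of untreated WT the count was 1, as the rise of BGLU42 was 0.97 and under 2-fold. After 10 h of Pep2, 3 rose (BGLU42, BGLU44 and BGLU25) and 1 fell (BGLU40), where 8.57% and 8.85% did. Without replicate 1 of untreated WT 2 fell, and without replicate 3 of WT at 10 h of Pep2 the rise of BGLU25 was 0.97 and under 2-fold.

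With elf18 in WT, 1 gene rose and 1 fell at each time, namely BGLU42 and BGLU40, where 8.16% of probe sets rose and 6.34% fell at 2 h, and 13.4% and 13.5% at 10 h. Without replicate 3 of untreated WT the count of those that fell was 2 at 2 h and 3 at 10 h. The median difference of the 10 genes lay between -0.41 and 0.06 over the 4 WT responses, and that of all probe sets between -0.11 and 0.00.

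BGLU40 and BGLU42 changed at 10 h in the receptor mutants too, where BGLU27 stayed at the lowest value and BGLU45 was below its untreated level. BGLU40 fell at 10 h by 4.33 with elf18 and by 2.55 with Pep2 in WT, and by 3.52 in efr-1 and 2.97 in pepr1-1 pepr2-3 (limma, adjusted p of at most 7.5e-09). BGLU42 rose at 10 h by 2.73 and 2.80 in WT, and by 2.19 in efr-1 and 2.80 in pepr1-1 pepr2-3. BGLU44, an enzyme active on mannosides, rose at 10 h of Pep2 by 2.22 in WT and by 2.20 in pepr1-1 pepr2-3.

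**Figure D3:**
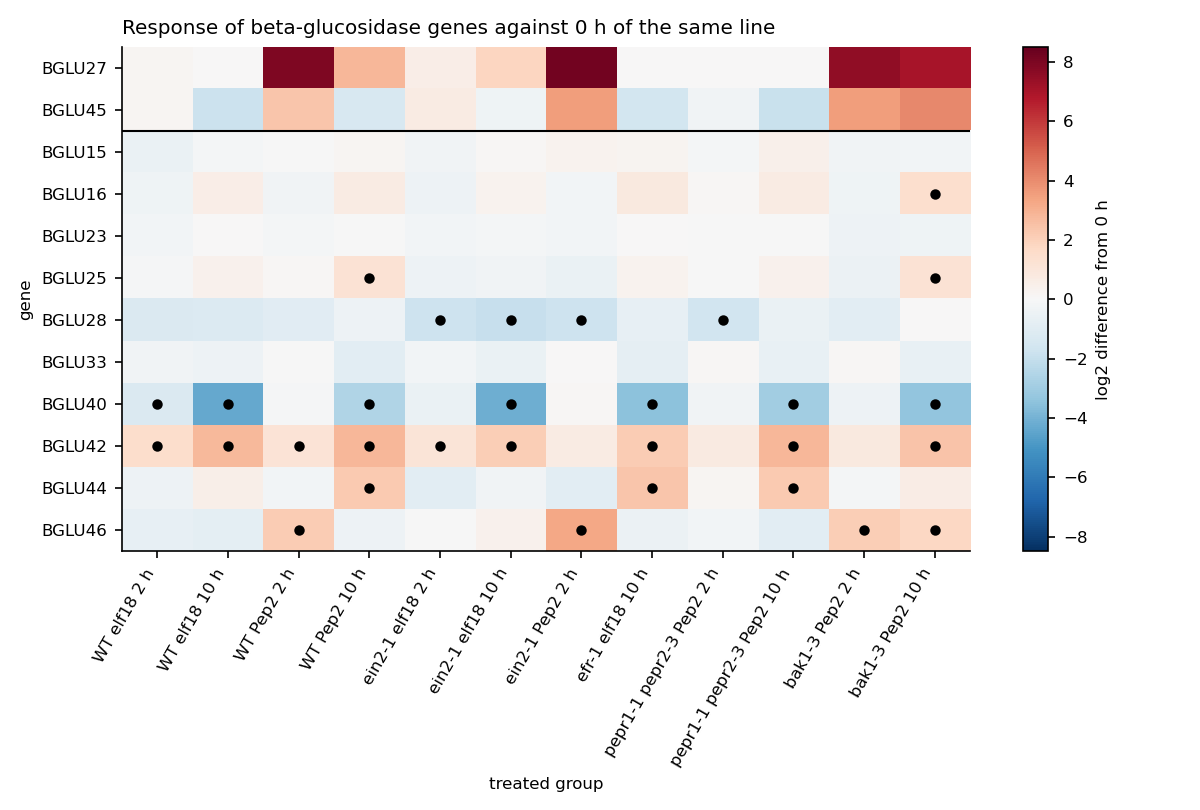
Log2 difference from 0 h of the same line in the 12 treated groups, for BGLU27 and BGLU45 (above the line, no test) and the 10 other family members that reached the minimum level; black dots mark calls at an adjusted p under 0.05 and at least 2-fold (limma). BGLU46 carries dots in the Pep2 groups of ein2-1 and bak1-3 and in WT at 2 h, whereas BGLU40 and BGLU42 carry them at 10 h in the receptor mutants too.

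In the interactions, 1 of the 10 genes was called lower at 2 h of Pep2 in pepr1-1 pepr2-3 (BGLU46, beside 11.8% of all probe sets) and 0 higher, beside 11.3%. In that line 0 were called higher and 0 lower at 10 h (limma), beside 3.83% and 4.78%. Without a minimum level, 1 gene was lower there. In efr-1 at 10 h of elf18, 1 was called higher (BGLU44 by 1.86) and 0 lower, beside 14.7% and 12.6%. In bak1-3 at 10 h of Pep2, BGLU46 was called higher and BGLU44 lower (a difference of -1.60), beside 6.68% and 8.36%.

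The other 10 named genes of the family stayed under the minimum. Every array was under 2.5 for 7 of them. BGLU24 reached a group mean of 4.13 in bak1-3 at 10 h of Pep2 and BGLU31 of 4.66 in ein2-1 at 2 h of Pep2. BGLU27 and BGLU45 were high in both groups, but neither gene followed them throughout. BGLU24 was at 2.09 in WT and in bak1-3 at 2 h of Pep2, and at 3.28 in WT at 10 h. BGLU31 was at 2.40 in WT and 3.28 in bak1-3 at 2 h of Pep2, and at 2.17 in bak1-3 at 10 h. BGLU47 was highest in untreated ein2-1, at 4.96.

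Of 28 genes listed for making, storing and polymerising monolignols, the substrates tied to BGLU45, 7 are named and 6 were tested. In WT at 2 h of Pep2, 4 of the 6 rose and 0 fell, with a median difference of 1.195 against -0.11 for all probe sets, of which 11.0% rose. These were CCR2, HCT, UGT72E1 and PRX72. The others tested, UGT72E2 and UGT72B1, differed by -0.52 and -0.45, under 2-fold (limma, adjusted p = 0.039 and 0.011). UGT72E2 differed by -0.996 at 2 h of elf18, just under 2-fold (limma, adjusted p = 0.00022). By 10 h of Pep2, 1 rose, CCR2 by 1.14, beside 8.57% of all probe sets that rose. Without replicate 1 of that group it was at 0.99 and the count was 0. With elf18, 2 rose at each time, CCR2 and UGT72E1, and 0 fell, beside 8.16% of all probe sets that rose and 6.34% that fell at 2 h and 13.4% and 13.5% at 10 h.

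CCR2 (AT1G80820), a cinnamoyl-CoA reductase on the path to monolignols, had the largest difference of the 6. In WT it was at 5.10 ± 0.22 untreated and at 11.15 ± 0.11 at 2 h of Pep2 (n = 3), a rise of 6.05 with an SE of 0.285 (limma, adjusted p = 3.6e-20). Unlike BGLU45 it rose with elf18 too, by 2.80 at 2 h and 2.69 at 10 h. Like BGLU45 it was below its untreated level in the receptor mutants at 10 h, by 1.75 in efr-1 (limma, adjusted p = 2.7e-06) and by 1.69 in pepr1-1 pepr2-3 (limma, adjusted p = 5.1e-06). Of the 6 genes, 2 were called lower in each of these responses, CCR2 and HCT, beside 7.12% and 7.57% of all probe sets.

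In bak1-3 at 10 h of Pep2, CCR2 was at 8.86 ± 0.09, and the response exceeded that of WT by 3.31 (SE 0.403, limma, adjusted p = 3.2e-08). HCT, a hydroxycinnamoyl transferase of the same path, rose by 1.33 in WT at 2 h of Pep2. UGT72E1, which attaches glucose to monolignol aldehydes, rose by 1.48 there, and PRX72, a peroxidase of lignin formation, by 1.06. PRX72 was at 0.98 without replicate 1 of untreated WT.

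Of 23 genes listed for indolic glucosinolates, the substrates of PEN2 and PYK10, 1 is named. This gene, UGT74B1, which adds the glucose during glucosinolate synthesis, was not called in the 4 WT responses. Its largest WT difference was 0.95 at 10 h of elf18, and it was called there without replicate 1 of that group or replicate 2 of untreated WT.

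The genes whose group means were most like those of each beta-glucosidase gene were ranked by Pearson's r over the 17 groups among 7827 others that have 1 gene and reached the minimum level. For BGLU27 the first 6 were AT3G04220 (0.996), AT5G52670 (0.986), AT5G57500 (0.973), AT4G19720 (0.971), EXLA3 (0.969), which belongs to the expansin-like genes, and AT5G03610 (0.959). BGLU46 ranked 11 with 0.951 and BGLU45 ranked 72. Over the 51 arrays the same 6 were first, and by Spearman's rho 1 of them was among the first 6.

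AT3G04220 was at 3.31 ± 0.08 in untreated WT, at 7.09 ± 0.02 at 2 h of Pep2 and at 4.20 ± 0.52 at 10 h, and it was at 6.63 ± 0.41 in bak1-3 at 10 h. AT5G52670 was at 2.40 ± 0.27, 8.16 ± 0.41 and 5.28 ± 0.24 in the same WT groups and at 9.04 ± 0.13 in bak1-3 at 10 h. Both were picked for their likeness to BGLU27 over these same groups. The intermediate WT level at 10 h and the high bak1-3 level that they share with it follow from that choice.

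For BGLU45 the first 6 were AT3G26470 (0.966), AT5G47710 (0.937), AT4G24380 (0.919), BGLU46 (0.917), AT2G32020 (0.906) and AT4G15120 (0.903). BGLU27 ranked 22. Over the 51 arrays 4 of them were among the first 6, and by Spearman's rho 1 was. AT3G26470 was at 7.00 ± 0.20 in untreated WT and at 8.13 ± 0.14 at 2 h of Pep2. At 10 h of Pep2 it was at 6.74 ± 0.60 in WT, 8.37 ± 0.16 in bak1-3 and 5.90 ± 0.27 in pepr1-1 pepr2-3. This gene was picked for its likeness to BGLU45 over these same groups, and the pattern that it shares follows from that choice.

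The array of ein2-1 at 10 h of elf18 on which BGLU27 was high was also the highest of its group for all 6 genes most like BGLU27 and all 6 most like BGLU45. AT5G52670 was at 5.10 on it and at 2.23 and 2.09 on the other arrays of the group. AT4G19720 was at 6.35, against 4.49 and 4.64, and BGLU46 at 8.47, against 7.39 and 7.18. These genes were ranked on group means that include this array. BGLU27 differed from 0 h in this group by 1.80 with all arrays and by 0.00 without replicate 1.

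**Figure D4:**
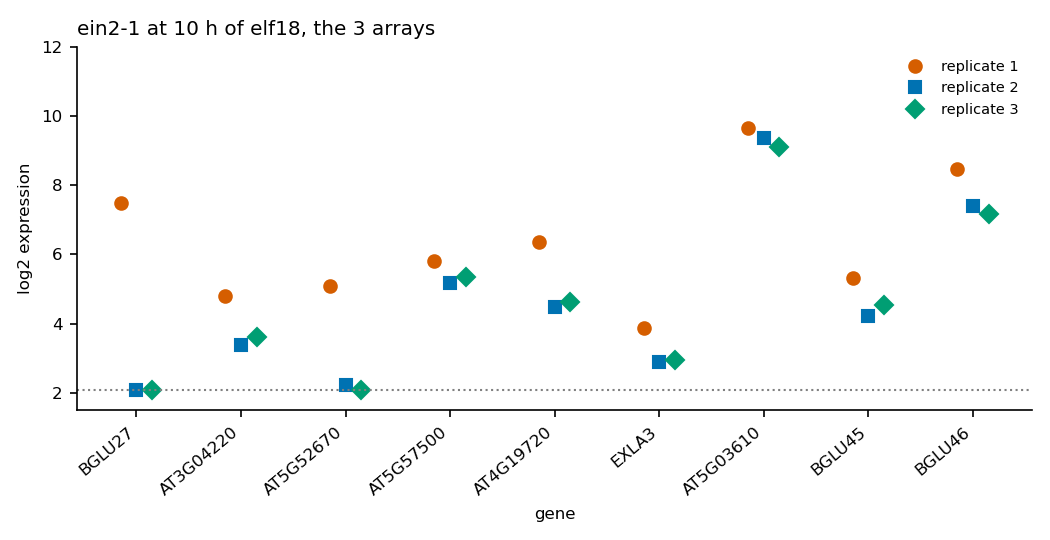
Log2 expression on the 3 arrays of ein2-1 at 10 h of elf18 for BGLU27, the 6 genes most like it over the 17 group means, BGLU45 and BGLU46; the symbols are replicates and the dotted line is the lowest value on the arrays. Replicate 1 is highest for each of the genes plotted, with BGLU27 at 7.49 against 2.08 on the other arrays.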

How the data were processed

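RNA of 51 samples was hybridised to ATH1 arrays by the authors. The deposited values are log2 expression per probe set, made by the authors with GCRMA, per the submitters' processing notes. Its version, the annotation used and any filter are not given in the sources used here. For arrays, the number of replicates limits the precision.

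Of 22810 probe sets, 64 are controls, and the annotation pairs 13513 of the others with 1 gene, 503 with several and 8730 with none. Probe sets at log2 5 or more on at least 3 arrays were tested (14568, of which 7828 have 1 gene). The fit used limma (version 3.58.1, R 4.3.3) on all 51 arrays, with 1 mean for each group, 34 residual and 3.84 prior degrees of freedom. Benjamini-Hochberg adjustment was made per comparison, and calls need an adjusted p under 0.05 and at least 2-fold. An interaction is the mutant response minus the WT response. Without the array of ein2-1 that stood apart, the fit was repeated.

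The 2 genes, the gene lists and the tests were chosen with earlier results of these data known. Besides the 2 genes, the text names the mutated genes, the listed genes with the largest changes (up to 4 a comparison), BGLU16, BGLU30, BGLU46 and PEN2, and the 6 genes most like each of the 2, with 1 probe set per gene. BGLU24, BGLU31, BGLU47, UGT72E2, UGT72B1 and the markers were named after their values were seen. The same holds for the comparisons of treated mutants with treated WT, the monolignol responses of the receptor mutants and the monolignol interactions.

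On simulated data for WT at 2 h of Pep2 with 14568 probe sets, 97 of 100 changed by 1.5 and 100 of 100 changed by 3 (log2) were recovered, and 2 unchanged probe sets were called. The simulated noise was normal and independent between arrays, with no lowest value and no array that stood apart. The recovery therefore does not cover these features of the real arrays. Same-numbered replicates were examined in the responses, the baselines and the comparisons of the peptides. Their residuals correlated over 0.1 in every pair in 2 of these, the response of ein2-1 to 2 h of Pep2 (0.18 to 0.236) and the baseline of ein2-1 (0.127 to 0.295), where the pairing comes from the data and not from the labels. Alternatives were no minimum level, a minimum of log2 7, an intensity trend, median centring, quantile normalisation, a block for the replicate number, a fit of the compared groups alone and leaving out each array. Plots used matplotlib 3.10.9 (Python 3.11.15). No sequences or genome coordinates were used, as none were available here, and the build of the probe sets is not given in the sources. Neighbouring genes were taken from the order of their locus numbers.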

Additional observations from a re-analysis of the deposited data

Results flagged for a closer look

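BGLU45 moved in opposite directions in bak1-3 and WT at 10 h of Pep2. The mean change from 0 h was 4.05 in bak1-3, where all 3 arrays lay above the untreated ones, and -1.39 in WT, where all 3 lay below them. The difference was not tested, because the gene was chosen with its response known.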

How the results depend on the processing

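Differences of the 2 genes that exceed 1 in size kept their direction under all alternatives listed, except those of BGLU27 in ein2-1 at 10 h of elf18, which rested on replicate 1. Some BGLU45 differences smaller than their SE changed sign when 1 array was left out, such as those of WT at 2 h of elf18 and of untreated ein2-1 from WT. Leaving out 1 array in turn, the level of BGLU27 in ein2-1 at 10 h of elf18 ranged from 2.08 to 4.79, its difference from 0 h, from WT and in the interaction from 0.00 to 2.70, and its difference from 2 h from -0.58 to 2.12, with -0.58 without replicate 1. The replicate number as a block left the estimates of both genes as they were, with 7.91 for BGLU27 and 2.37 for BGLU45 in WT at 2 h of Pep2.

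Counts of listed genes are small and moved by 1 or 2. Family members that fell in WT with elf18 numbered 2 at 2 h and 2 at 10 h with only the groups compared. Without a minimum level, 1 was lower in the pepr1-1 pepr2-3 interaction at 10 h. Monolignol genes that fell at 2 h of elf18 numbered 1 with quantile normalisation and 1 with median centring. Leaving out 1 array in turn, family members that fell ranged from 1 to 2 at 2 h of elf18, from 1 to 3 at 10 h of elf18 and from 1 to 2 at 10 h of Pep2, those that rose at 2 h of Pep2 from 1 to 2, and those lower in the pepr1-1 pepr2-3 interaction at 10 h from 0 to 1. Monolignol genes that fell at 2 h of elf18 ranged from 0 to 1 and those that rose at 10 h of Pep2 from 0 to 1. Indolic genes that rose at 10 h of elf18 ranged from 0 to 1. The cause was not tested. Signal near 2.08 limits what can be said of BGLU27 in most groups. Repeated low values limit the size of the BGLU45 differences at 10 h of elf18 and in pepr1-1 pepr2-3 at 10 h of Pep2.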

Other observations

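Replicate 1 of ein2-1 at 10 h of elf18 was compared with the other arrays of its group over the 595 probe sets called higher with Pep2 than with elf18 at 2 h in WT, BGLU27 and BGLU45 left out. This comparison was chosen after the values were seen. The median deviation of replicate 1 from the mean of the other 2 arrays was 0.37 over these probe sets and -0.02 over all 14568 tested. Of the 595, 22.2% lay more than 1 above the other arrays, beside 2.79% of all probe sets. For the 3 arrays of WT at 10 h of elf18 the corresponding shares of the 595 were 0.336%, 1.34% and 1.34%. The cause was not tested.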
